A study of Mus musculus with 6 samples.

Results

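The cholesterol synthesis enzymes examined here were *Hmgcs1*, *Idi1*, *Fdps*, *Fdft1*, *Sqle*, *Lss* and *Cyp51*, 7 of the 23183 gene symbols measured in double positive (DP) thymocytes. Their rows were found by symbol, the set having been chosen with earlier results of these data known, and all 7 were present in every library. Cells build cholesterol from acetyl-CoA through mevalonate, farnesyl pyrophosphate, squalene and lanosterol, and the same route supplies the isoprenoid lipids that anchor many signaling proteins to membranes. Most genes of the route are targets of the SREBP transcription factors, which are held in the endoplasmic reticulum by SCAP and the INSIG proteins when sterols are plentiful and are released by proteolysis when sterols are scarce. DP thymocytes are T cell precursors that express CD4 together with CD8, and dividing lymphocytes are known for a high demand for sterol.

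The libraries came from sorted DP thymocytes of 6 samples of mice labelled C57BL/6 and 6 weeks of age, 3 with the genotype NSRP1f/f (WT) and 3 with NSRP1f/fCD4Cre (NSrp70-cKO, shortened to cKO). Both groups carried the floxed *Nsrp1* alleles, and the cKO group also carried a Cre transgene driven by the enhancer and promoter of *Cd4*. According to a supplementary figure legend of the paper, this transgene deletes from the late double negative stage, before the DP stage. The presence of Cre and the loss of *Nsrp1* therefore cannot be told apart. *Nsrp1* encodes NSrp70, a splicing regulator of nuclear speckles. No label states whether the 3 libraries of a genotype came from separate animals, so the p-values measure the spread between these libraries, which may be partly technical. The question of the design was which genes differ between NSrp70-deficient and WT DP thymocytes.

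The values are FPKM, in which the fragments of a gene are counted per length of transcript and per size of library. The mapped depth was estimated as 20.7 to 20.8 M fragments in WT and as 13.2, 20.7 and 17.4 M in cKO 1, 2 and 3. The FPKM of *Nsrp1*, which is listed as *Ccdc55*, was 20.2, 20.7 and 21.1 in WT and 17.7, 15.8 and 15.002 in cKO (log2 ratio of cKO to WT -0.34, adjusted p = 0.00675 from limma). FPKM covers the whole transcript, and the part removed by Cre was not analysed here. The variance between WT libraries was 1.49 to 1.58 times that of counting, against 28.3 to 61.8 times between cKO libraries, so each main count is also given with the WT libraries merged into 1 sample. *Xist* lay between 69.8 and 72.0 FPKM in WT and between 4.07 and 5.44 in cKO. The Y-linked *Ddx3y* was listed at 0 in WT and between 26.2 and 35.0 in cKO. A difference of sex and one of genotype therefore cannot be told apart. The 7 enzymes lie on autosomes, and the part of sex in their levels was not tested. The 9 DP markers summed to 5442 to 5519 FPKM in WT and 7184 to 9420 in cKO. Of the markers of other cells, 4 of 5 for B cells, 4 of 8 for myeloid cells, 4 of 5 for epithelium, 4 of 6 for erythroid cells and 4 of 5 for stroma were below 1 FPKM in every library, with the epithelial *Krt5* and *Foxn1* listed at 0 throughout. Above that level lay the myeloid *Lyz2*, *Itgam*, *Cd68* and *Fcer1g*, at 1.08 to 3.59 FPKM, and the epithelial *Epcam*, at 1.88 to 3.71.

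Promoter sequences of *Hmgcs1*, *Idi1*, *Lss* and *Cyp51* are shown because SREBP proteins are known to act at promoters of this pathway beside the factor NF-Y, and because the table used here held these 4 members. They were taken from RefSeq on GRCm38.p6, and each is the stretch of up to 150 bases that ends just before the first transcribed base annotated by RefSeq or GENCODE, written 5′ to 3′ on the strand of the gene. Capitals mark matches on either strand to the core of the sterol regulatory element, searched as TCACNCCAC with N for any base, and to the CCAAT box that NF-Y binds. The 2 motifs did not overlap in these sequences. The *Hmgcs1* stretch is chr13:119690201-119690350 on the plus strand, the *Idi1* stretch is chr13:8885356-8885500 on the plus strand, the *Lss* stretch is chr10:76531438-76531587 on the plus strand and the *Cyp51* stretch is chr5:4104747-4104896 on the minus strand.
Hmgcs1: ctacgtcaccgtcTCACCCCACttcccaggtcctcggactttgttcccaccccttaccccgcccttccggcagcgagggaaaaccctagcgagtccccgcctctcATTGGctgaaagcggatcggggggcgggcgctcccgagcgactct
Idi1: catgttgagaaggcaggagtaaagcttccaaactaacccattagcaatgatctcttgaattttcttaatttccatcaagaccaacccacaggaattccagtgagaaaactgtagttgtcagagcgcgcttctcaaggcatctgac
Lss: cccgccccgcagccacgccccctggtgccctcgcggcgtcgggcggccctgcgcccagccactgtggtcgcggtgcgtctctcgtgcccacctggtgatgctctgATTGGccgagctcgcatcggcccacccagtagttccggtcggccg
Cyp51: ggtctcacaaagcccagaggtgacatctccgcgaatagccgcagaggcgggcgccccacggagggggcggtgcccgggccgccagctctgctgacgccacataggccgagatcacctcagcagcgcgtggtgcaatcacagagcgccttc

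The letters of the sterol regulatory element core occurred in the *Hmgcs1* promoter, 137 bases before the start site, and in no other of the 4 promoters. Over the full window of 250 bases before to 50 after the start site, 1.24% of the 32851 promoters of the table held that core. The CCAAT box occurred in all 4 members' windows, against 37.4% of all promoters, and lay outside the printed stretch in *Idi1* and *Cyp51*. Among the other enzymes of the pathway, 13 had a promoter in the table, of which 11 held a CCAAT box and 0 the sterol element core. A match of letters is a description of the sequence and not a measured binding site. Other spellings of the sterol element were not searched, so the lack of a match does not show that a promoter lacks one.

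All 7 enzymes were higher in NSrp70-cKO than in WT DP thymocytes, and in each of them the 3 cKO values lay above the 3 WT values. The means rose between 1.28 times for *Lss* and 2.24 times for *Fdps*. Each had an adjusted p under 0.05 from limma, and 0 were lower. Over all 10326 genes tested, 35.8% were called higher and 29.8% lower, and 39.1% had every cKO value above every WT value. The log2 ratio of the cKO to the WT group had a median of 0.85 over the 7 enzymes and 0.039 over all tested genes. The 7 enzymes passed the filter on low values in WT alone, and the log2 ratios are on the log2(FPKM + 1) scale, on which the change of a gene is understated when it is as low as *Lss*. In bulk libraries, a change in the RNA of each cell and a change in the share of cells that make it cannot be told apart.

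**Figure D1:**
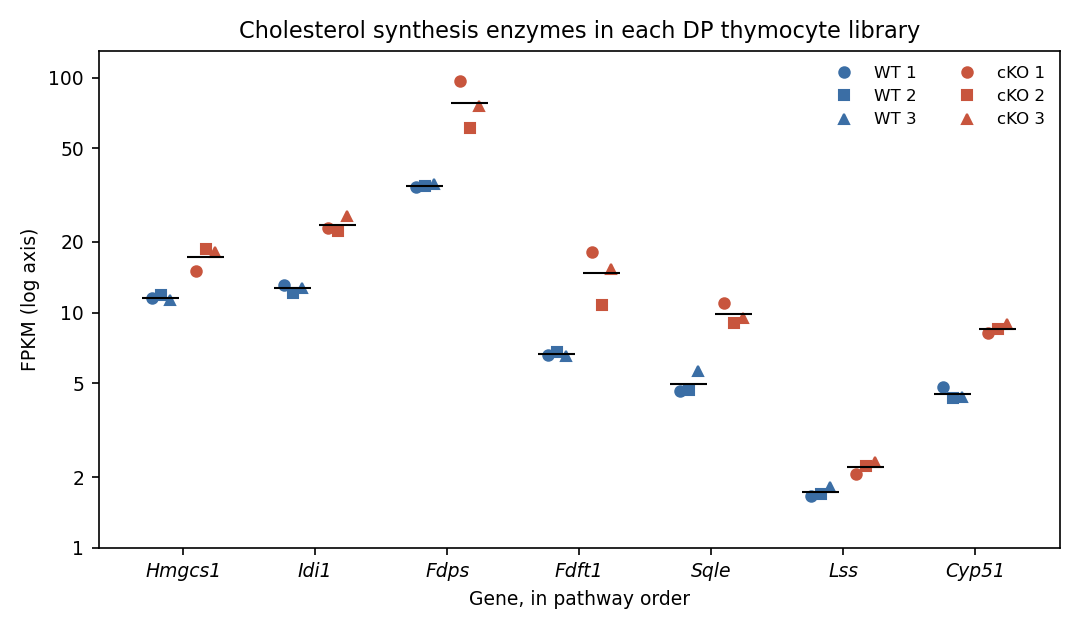
FPKM of each of the 7 enzymes in every library, on a log axis, with the genes in pathway order. Blue symbols are the 3 WT libraries, red symbols the 3 cKO libraries and bars the group means; in every gene the cKO symbols lie above the WT symbols, from *Lss* near 2 FPKM to *Fdps* near 78.

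The first members of the route make and use mevalonate. *Hmgcs1*, the cytosolic HMG-CoA synthase that supplies HMG-CoA for mevalonate (chromosome 13, 119690379 to 119708260 of GRCm38), had an FPKM of 11.5, 11.9 and 11.3 in WT and of 15.1, 18.6 and 18.1 in cKO. Its log2 ratio was 0.53 (SE 0.087, adjusted p = 0.00169), and the lowest cKO library was 1.27 times the highest WT library. *Idi1*, the isomerase that interconverts the 5-carbon isoprene units (chromosome 13, 8885501 to 8892451), had an FPKM of 13.1, 12.2 and 12.7 in WT and of 23.0, 22.2 and 25.8 in cKO, a log2 ratio of 0.85 (SE 0.077, adjusted p = 0.000218). The *Idi1* values of a genotype stayed close together, and the groups were well apart. *Fdps*, the synthase that joins these units into farnesyl pyrophosphate (chromosome 3, 89093588 to 89101959), had an FPKM of 34.2, 34.5 and 35.4 in WT and of 96.4, 61.0 and 75.7 in cKO. Its log2 ratio of 1.11 (SE 0.16, adjusted p = 0.000901) was the highest of the 7 as fitted here, though *Fdft1* was higher at 1.11 against 0.96 once adjusted for GC and length and at 1.06 against 0.93 under quantile normalization. The cKO libraries of *Fdps* differed from each other by up to 1.58 times.

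Farnesyl pyrophosphate is the branch point between sterols and other isoprenoids, and the next 3 members lead from it to the first sterol ring. *Fdft1*, squalene synthase (chromosome 14, 63145150 to 63179578), had an FPKM of 6.61, 6.79 and 6.56 in WT and of 18.1, 10.8 and 15.4 in cKO, a log2 ratio of 1.01 (SE 0.17, adjusted p = 0.00187). It had the widest spread of the 7 in cKO, with a highest library 1.68 times the lowest, while its WT libraries were nearly equal. *Sqle*, squalene epoxidase, an oxygen-dependent and rate-limiting step (chromosome 15, 59315077 to 59331192), had an FPKM of 4.65, 4.68 and 5.65 in WT and of 10.98, 9.02 and 9.48 in cKO. Its log2 ratio was 0.85 (SE 0.10, adjusted p = 0.000556), and the cKO library nearest to WT was 1.60 times the highest WT value.

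*Lss*, lanosterol synthase, which closes the ring (chromosome 10, 76531588 to 76557138), was the lowest of the enzymes, with an FPKM of 1.67, 1.70 and 1.81 in WT and of 2.06, 2.23 and 2.32 in cKO. Its log2 ratio of 0.23 (SE 0.079, adjusted p = 0.0367) was the smallest of the 7 as fitted here, with a 95% interval of 0.042 to 0.42. The interval of *Lss* lay below those of *Idi1*, *Fdps*, *Fdft1*, *Sqle* and *Cyp51*, but once adjusted for GC and length *Lss*, at 0.42 (0.22 to 0.62), lay above *Hmgcs1*, at 0.33, and overlapped the intervals of *Idi1*, *Sqle* and *Cyp51*. *Lss* also rested on the fewest reads, an estimated 121 to 206 fragments in a library, which gives a counting error of up to 9.10%. Without any 1 of the WT libraries or without cKO 3, its adjusted p lay between 0.0729 and 0.148. *Cyp51*, the lanosterol demethylase that begins the conversion of lanosterol to cholesterol (chromosome 5, 4081145 to 4104746), had an FPKM of 4.83, 4.33 and 4.38 in WT and of 8.16, 8.51 and 8.97 in cKO. Its log2 ratio was 0.79 (SE 0.074, adjusted p = 0.000237), and its cKO libraries were the closest to each other among the 7, within 1.10 times.

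Because FPKM is per length, the levels of the enzymes can be set beside each other. By mean FPKM the order was *Fdps*, *Idi1*, *Hmgcs1*, *Fdft1*, *Sqle*, *Cyp51* and *Lss* in both genotypes. In WT, only the neighbours *Sqle* and *Cyp51* overlapped in their ranges. In cKO, the range of *Fdft1* overlapped those of *Hmgcs1* above it and *Sqle* below it. The 7 enzymes summed to 76.1 to 77.8 FPKM in a WT library and to 174, 132 and 156 FPKM in cKO 1, 2 and 3, or 0.0144% to 0.0147% and 0.0183% to 0.0220% of the FPKM total of a library. *Fdps* made up 44.7% to 45.5% of the sum in WT and 55.5%, 46.1% and 48.6% in cKO 1, 2 and 3.

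The cKO libraries did not rank alike in every enzyme. *Fdps*, *Fdft1* and *Sqle* were highest in cKO 1 and lowest in cKO 2. Relative to the WT mean, *Fdft1* was at 2.72, 1.62 and 2.31 times in cKO 1, 2 and 3, and *Fdps* at 2.78, 1.76 and 2.18 times. *Hmgcs1* had the opposite order at 1.30, 1.61 and 1.56 times, and *Lss* and *Cyp51* were likewise lowest in cKO 1. Among the enzymes that are not members, *Mvk*, *Mvd* and *Ebp* ranked as *Fdps* did, highest in cKO 1 and lowest in cKO 2, whereas *Lbr* and *Nsdhl* ranked as *Hmgcs1* did. Library cKO 1 had the lowest estimated depth and cKO 2 the highest of the cKO group. The longest annotated coding transcript of *Fdps* has 1382 bases and a GC content of 54.5%, that of *Fdft1* 3698 bases and 51.8%, that of *Hmgcs1* 3464 bases and 43.1% and that of *Lss* 4667 bases and 52.2%. The part of depth, length and GC content in this ranking was not tested.

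**Figure D2:**
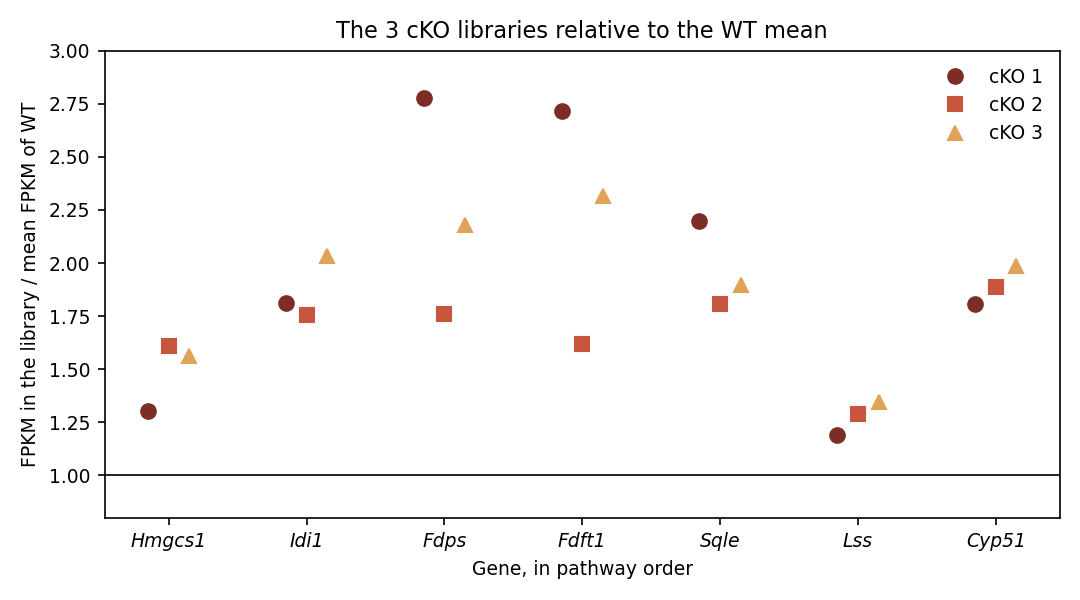
FPKM of each enzyme in the 3 cKO libraries divided by the WT mean, with the line at 1 standing for WT. The libraries spread from 1.62 to 2.72 in *Fdft1* and from 1.76 to 2.78 in *Fdps* but only from 1.81 to 1.99 in *Cyp51*, and cKO 1 is the highest library for *Fdps*, *Fdft1* and *Sqle* and the lowest for *Hmgcs1*, *Lss* and *Cyp51*.

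Of the 15 other enzymes of the pathway, 14 were tested, and 10 were called higher, 3 lower and 1 neither. Over all tested genes, 35.8% were called higher and 29.8% lower. Of the early steps, *Acat2*, the cytosolic thiolase, rose from a mean of 11.2 to 19.7 ± 2.30 FPKM (SD, n = 3), a log2 ratio of 0.75 (adjusted p = 0.000583 from limma). The kinases *Mvk* and *Pmvk* had log2 ratios of 0.41 and 0.35 (adjusted p = 0.0372 and 0.0203 from limma), which were -0.070 and -0.18 with library totals of FPKM set equal. For the decarboxylase *Mvd* it was 0.29 (adjusted p = 0.1804), and the groups overlapped. *Idi2*, the paralogue of *Idi1*, was at most 0.0236 FPKM and was not tested.

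After lanosterol 7 of 10 enzymes were called higher and 3 lower, or 5 and 1 once adjusted for GC and length. The shares of all tested genes were 35.8% higher and 29.8% lower, or 30.0% and 26.8% with that adjustment. *Ebp*, the sterol isomerase, had a log2 ratio of 1.20 (adjusted p = 0.00177 from limma), with 15.9, 16.3 and 15.2 FPKM in WT and 47.5, 26.6 and 41.6 in cKO. *Msmo1*, *Nsdhl* and *Hsd17b7*, which remove the methyl groups at carbon 4, had log2 ratios of 0.65, 0.61 and 0.54. Their mean FPKM rose 1.66, 1.63 and 1.88 times. *Hsd17b7* had a mean of only 1.10 FPKM in WT, so its change is understated on the log2(FPKM + 1) scale. *Sc5d*, the desaturase, had a log2 ratio of 0.46, which was -0.068 at equal totals. *Ebp* and *Nsdhl* lie on chromosome X. Of the enzymes that reduce the ring at carbon 14, *Lbr*, also a protein of the nuclear envelope, rose from 177 to 223 ± 26.7 FPKM (SD, n = 3), a log2 ratio of 0.32 (adjusted p = 0.0204) that turned to -0.23 at equal totals and to -0.16 under quantile normalization. *Tm7sf2* fell from 3.08 to 1.70 ± 0.166 FPKM (SD, n = 3), a log2 ratio of -0.60 (adjusted p = 0.00112 from limma). *Dhcr7*, a reductase of the last steps to cholesterol, was lower in all 3 cKO libraries, with a log2 ratio of -0.27 (adjusted p = 0.0233 from limma). Once adjusted for GC and length, *Tm7sf2* stayed lower at -0.55 (adjusted p = 0.00451 from limma), while *Dhcr7*, at -0.21, lost its call (adjusted p = 0.0595).

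**Figure D3:**
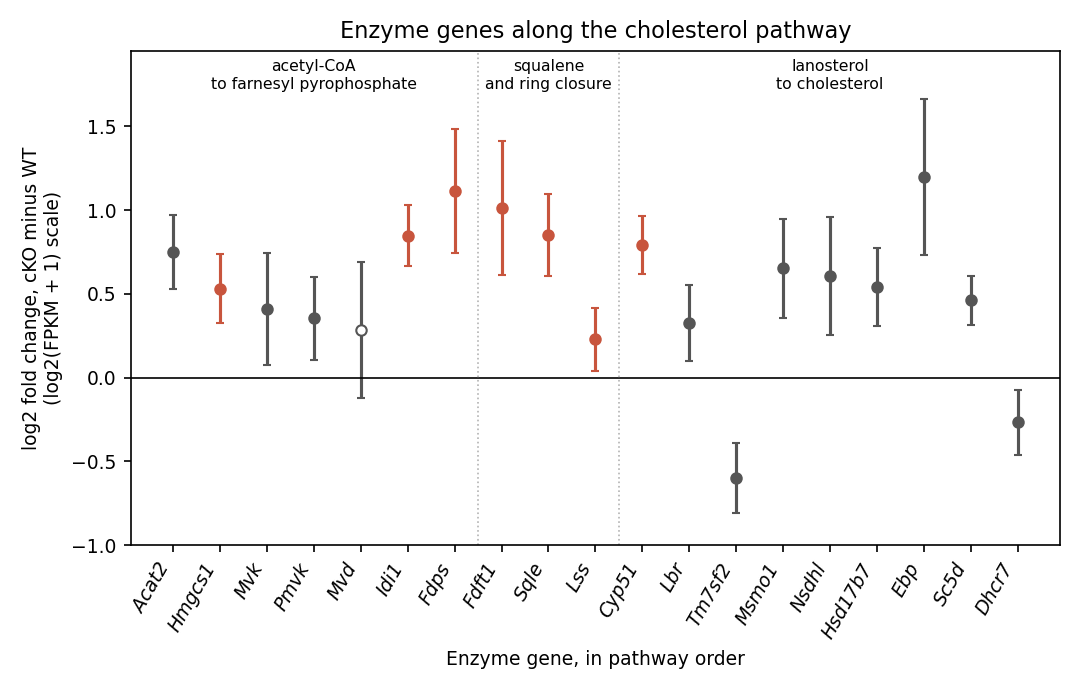
Log2 ratio of cKO over WT on the log2(FPKM + 1) scale, with 95% intervals from limma, for 19 enzyme genes, in pathway order and divided by dotted lines into 3 stages. Red marks the 7 members, grey the other enzymes, and an open symbol an adjusted p of 0.05 or more; the points lie above 0 up to *Cyp51*, and *Tm7sf2* and *Dhcr7* lie below it.

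The calls on the 7 enzymes varied with the scaling and with the treatment of the WT libraries. The FPKM total of a library was 521296 to 531517 in WT and 701396 to 850548 in cKO. Scaling every library to the same total moved the log2 ratio of the median tested gene by -0.49, to -0.45. At that scaling *Idi1*, *Fdps*, *Fdft1*, *Sqle* and *Cyp51* had log2 ratios between 0.31 and 0.56 and were called higher, against 8.74% of all genes (59.9% were called lower), while *Hmgcs1* was at 0.0082 (adjusted p = 0.956) and *Lss* at -0.14 (adjusted p = 0.225). Of the other enzymes, 2 were then called higher, *Acat2* and *Ebp*, and 3 lower. With WT merged into 1 sample, 4 members, *Idi1*, *Fdps*, *Sqle* and *Cyp51*, were called higher, against 7.16% of all genes (8.74% lower), and *Fdft1* (adjusted p = 0.0539), *Hmgcs1* (0.0811) and *Lss* (0.373) were not. Of the other enzymes, 1 was called higher and 0 lower in that fit. After adjusting each library for GC content and transcript length, all 7 members were called higher, against 30.0% of all genes (26.8% lower), with *Hmgcs1* at 0.33 and *Lss* at 0.42. Of the other enzymes 9 were then called higher and 1 lower. Quantile normalization left all 7 members called higher, against 33.7% of all genes.

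**Figure D4:**
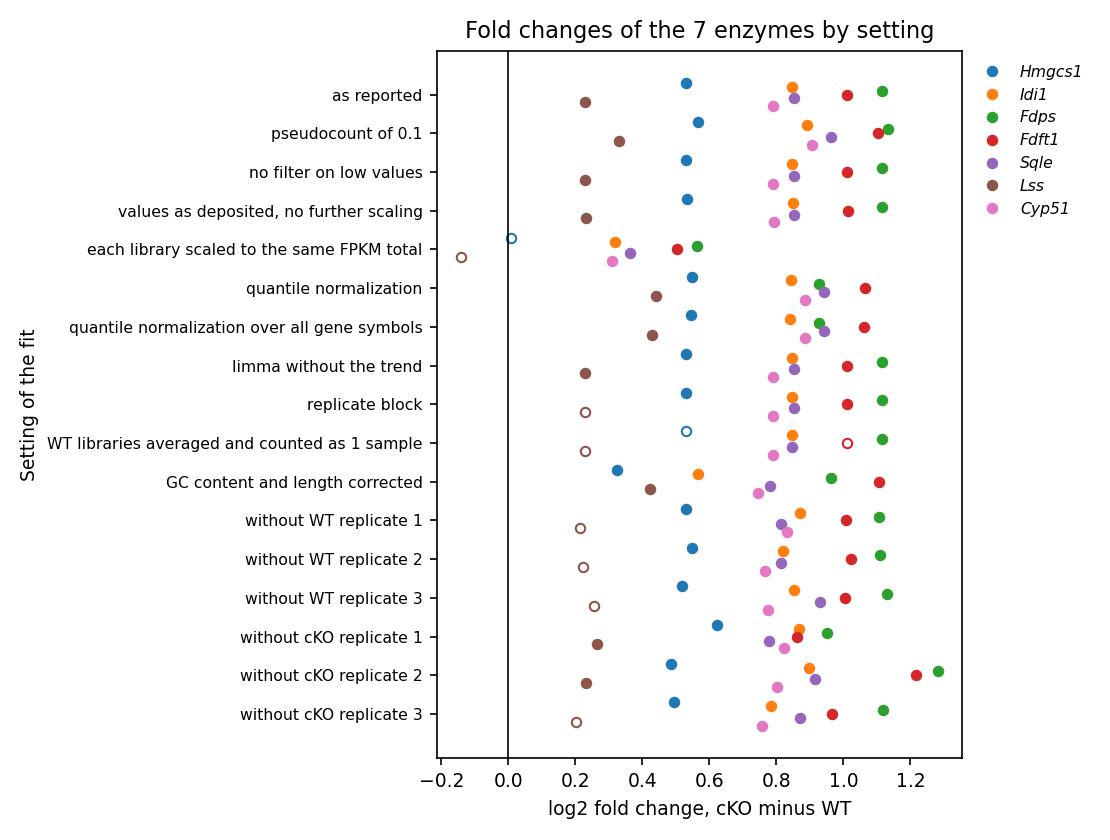
Log2 ratio of each of the 7 enzymes (colors) as reported and under 16 other settings of the fit, with filled symbols for an adjusted p under 0.05 and open symbols for a larger one. *Idi1*, *Fdps*, *Sqle* and *Cyp51* are filled in every setting shown, and *Lss* is left of 0 where library totals of FPKM are set equal.

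Of 11 sterol sensing genes tested, 2 were called higher and 4 lower, against 35.8% and 29.8% of all tested genes, so the share called lower was near that of all genes. Their median log2 ratio was -0.049. *Srebf2*, which encodes the SREBP factor that acts chiefly on cholesterol genes, had an FPKM of 47.9, 46.6 and 45.0 in WT and of 44.0, 32.6 and 38.3 in cKO, a log2 ratio of -0.28 (adjusted p = 0.0582). *Srebf1*, its relative that acts more on fatty acid genes, was lower at -0.33 (adjusted p = 0.00339 from limma). *Scap*, the escort of both factors, fell from 20.6 to 13.3 ± 2.27 FPKM (SD, n = 3), a log2 ratio of -0.61 (adjusted p = 0.00314). Of the proteases that release the factors, *Mbtps1* was lower at -0.40 (adjusted p = 0.00115 from limma) and the X-linked *Mbtps2* higher at 0.36 (adjusted p = 0.00557 from limma), or -0.11 at equal totals. The ligase gene *Rnf139* was higher at 0.23 (-0.29 at equal totals). *Insig1*, both a retention factor and a SREBP target, had an FPKM of 21.1, 21.6 and 23.0 in WT and of 16.6, 35.2 and 20.1 in cKO, so that cKO 2 lay above and the other 2 cKO libraries below the WT range. Once adjusted for GC and length, *Srebf1* and *Srebf2* turned to 0.26 and 0.34 (adjusted p = 0.00989 and 0.0238 from limma) and *Scap* to 0.0069 (adjusted p = 0.956), so the direction of these 3 genes rested on that choice. *Mbtps2*, at 0.20 (adjusted p = 0.0568), and *Rnf139*, at 0.058 (adjusted p = 0.418), lost their calls with it.

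Of 9 uptake and transport genes tested, 2 were called higher and 4 lower, against 35.8% and 29.8% of all tested genes. *Stard4*, a sterol carrier, and *Npc2*, which hands cholesterol out of the lysosome, were higher at 0.43 and 0.49, and at -0.058 and -0.063 at equal totals. Its partner *Npc1* was lower at -0.45, as were *Scarb1*, the HDL receptor, at -0.46 and *Mylip*, a ubiquitin ligase, at -0.31. Over both lists 4 genes were called higher and 8 lower of 20 tested. *Scarb1*, at -0.17, lost its call once adjusted for GC and length (adjusted p = 0.0903 from limma). With library totals set equal the counts over both lists were 0 and 14, where 8.74% and 59.9% of all genes were called, with WT merged into 1 sample 0 and 1, and once adjusted for GC and length 6 and 4.

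**Figure D5:**
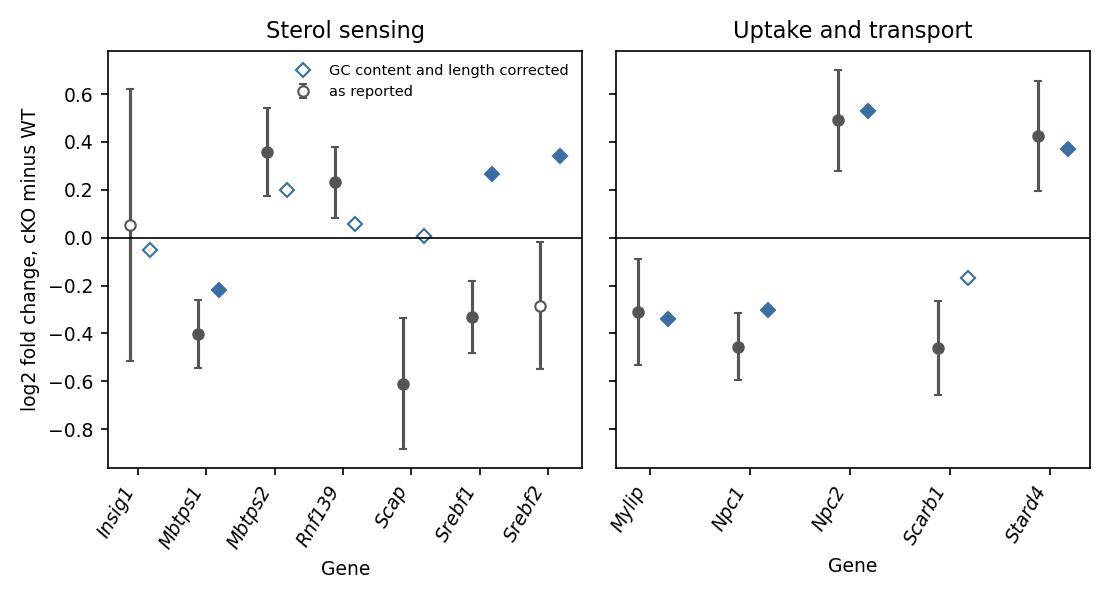
Log2 ratio of cKO over WT for 7 sterol sensing genes (left) and 5 uptake and transport genes (right) named in the text. Grey circles with 95% intervals are the values as reported and blue diamonds those once adjusted for GC and length, filled at an adjusted p under 0.05; *Srebf1* and *Srebf2* lie below 0 as grey circles and above 0 as blue diamonds.

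Genes next to the pathway were called in both directions, against 35.8% higher and 29.8% lower over all tested genes. Of 6 tested genes of cholesterol export and storage, 1 was called higher and 4 lower. *Abca7*, a lipid transporter, fell from 17.4 to 6.91 ± 1.47 FPKM (SD, n = 3) and *Soat1*, which esterifies cholesterol for storage, from 35.9 to 24.8 ± 3.10 FPKM, while *Abca1* was higher at a log2 ratio of 0.28 (-0.19 at equal totals) and *Apoe* lower at -0.45. Of 11 tested genes of the isoprenoid branch, 3 were called higher and 3 lower. *Ggps1*, which extends farnesyl to geranylgeranyl pyrophosphate, rose from 17.2 to 28.6 ± 2.00 FPKM (SD, n = 3), a log2 ratio of 0.70 (adjusted p = 0.000375 from limma). *Pdss1*, for the tail of ubiquinone, and *Pggt1b*, a subunit of a protein prenyl transferase, were higher at 0.69 and 0.59, and *Rabggta* was lower at -0.45. Of 10 tested genes of fatty acid synthesis, 5 were called higher and 1 lower. *Fasn*, fatty acid synthase, fell from 11.2 to 6.90 ± 0.544 FPKM (SD, n = 3), a log2 ratio of -0.63, which was 0.13 (adjusted p = 0.158 from limma) once adjusted for GC and length. *Acaca*, acetyl-CoA carboxylase, was higher at 0.61, and the elongases *Elovl5* and *Elovl1* at 0.68 and 0.36, the latter at -0.17 at equal totals. With library totals set equal, 0 genes were called higher and 5 lower in the export list, 0 and 7 in the isoprenoid list and 0 and 5 in the fatty acid list. *Ggps1*, *Pdss1*, *Pggt1b*, *Acaca* and *Elovl5* then had log2 ratios of 0.076 to 0.27 and adjusted p of 0.0553 to 0.490 from limma.

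Proliferation genes and cell markers are given beside the enzymes, whether or not they moved with them. All 10 proliferation genes listed were called higher, against 35.8% of all tested genes, with a median log2 ratio of 1.09. That median was 0.535 at equal totals and 0.65 under quantile normalization, with 9 of the 10 called higher in each. *Aurkb*, at 0.26, turned to -0.28 at equal totals. *Ccnb1*, *Cdk1*, *Ccna2* and *Top2a* had log2 ratios of 1.32, 1.11, 1.06 and 1.07. Of 6 markers of mature single positive thymocytes, 5 were called lower and 1 higher, against 29.8% and 35.8% of all tested genes. Their list summed to 129 to 130 FPKM in WT and 101.4 to 124 in cKO. The erythroid list summed to 2.00 to 2.79 FPKM in WT and 12.5 to 26.9 in cKO, chiefly *Hbb-b1* and *Hba-a1*. The 8 myeloid markers summed to 7.78 to 9.75 FPKM in WT and 7.33 to 8.92 in cKO, and the 5 epithelial markers to 3.56 to 3.98 and 1.92 to 3.67. The B cell list summed to 22.8 to 24.2 and 26.6 to 39.4 FPKM, almost all of it *Cd79b*, and the stromal list to 43.5 to 45.5 and 49.7 to 54.8, almost all of it *Pecam1*. The part of any of these in the higher enzyme levels was not tested.

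The profile of the enzymes over the 6 libraries was not theirs alone. Each gene's log2(FPKM + 1) values were centred on its WT mean and compared with the median profile of the 7 enzymes, which was 0.82, 0.74 and 0.86 in cKO 1, 2 and 3. The nearest genes outside the lists were *Nck1*, *Psmd5*, *Cfap36*, *Tmem209* and *Nhp2l1*, with a root mean square difference of 0.022 to 0.033 on the log2 scale. *Nck1*, an adaptor protein, had an FPKM of 27.0 in all 3 WT libraries and of 46.8, 44.8 and 50.1 in cKO. The nearest members, *Idi1* and *Cyp51*, were at 0.055 and ranked 42 and 43 of all tested genes, and the farthest, *Lss*, at 0.41.

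Some of the enzyme genes overlap others in GENCODE. The 3′ end of *Fdft1* overlaps *Ctsb* on the other strand by 774 bases, that of *Cyp51* overlaps *Akap9* by 166 bases, and *Lss* overlaps the antisense gene *4930483K19Rik* by 11268 bases. *Hmgcs1* and *Idi1* overlap the unlisted antisense genes *Gm48342* and *Gm48574*, and *Fdps* overlaps the unlisted *Gm43738* on its own strand. The libraries kept strand, but whether the counting used it is not given in the sources used here, so reads of such partners cannot be told apart.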

How the data were processed

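Sorted DP thymocytes of 3 WT and 3 cKO samples were profiled by mRNA-seq. According to the methods, the authors made poly(A)-enriched directional libraries, used fastx trimmer on the paired-end reads, TopHat for mapping to mm10, and Cufflinks for the deposited FPKM, 1 value for each gene symbol in a library. Versions, annotation and strand setting are not given in the sources used here. The authors compared gene counts with DESeq2, a count model that FPKM values do not allow.

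Here FPKM was scaled by size factors from the median of ratios (1.00 to 1.01). Genes that reached 1 FPKM in 3 or more libraries (10326) were kept, and their log2(FPKM + 1) was fitted by genotype with limma 3.58.1 (lmFit, eBayes with trend, two-sided) in R 4.3.3. All p-values printed were adjusted by the Benjamini-Hochberg method over all tested genes, at 0.05. On simulated data with known changes the fit was tested before use. Figures used matplotlib 3.10.9 and Python 3.11.15.

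Of 23183 symbols, 22148 were in GENCODE mouse release 21 (GRCm38, the assembly of mm10) and 642 matched by RefSeq synonym. Depth was estimated from steps of 1 fragment at 2611 single-transcript coding genes longer than 1000 bases, with an assumed fragment length of 200. Counting error covers sampling of fragments only. The GC and length adjustment used natural splines with 5 degrees of freedom each, over 10259 genes.

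The members and gene lists were chosen with earlier results of these data known. Named by rule were the members, the other enzymes, called genes of the sterol sensing and uptake lists, and up to 4 called genes with the smallest adjusted p in the export, isoprenoid, fatty acid and proliferation lists. *Srebf2* and *Insig1*, which were not called, and genes given beside the results were named after their values were seen. Quantile normalization over all symbols was an alternative chosen after seeing the data. Some listed genes are not reported here by name, and the counts of their lists include them.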

Additional observations from a re-analysis of the deposited data

How the results depend on the processing

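The 7 enzymes were refitted under 16 alternatives each. *Idi1*, *Fdps*, *Sqle* and *Cyp51* kept an adjusted p under 0.05 from limma and a positive log2 ratio in all 16, *Fdft1* in 15 and *Hmgcs1* in 14, while *Lss* kept both in 9. With library totals of FPKM set equal, the log2 ratio of *Hmgcs1* was 0.0082 and that of *Lss* -0.14, 902 of all tested genes were called higher and 6181 lower, 2 of the other enzymes were called higher, and the sterol regulation and uptake list had 0 called higher and 14 lower. With WT merged into 1 sample, 4 enzymes of the 7 were called higher, *Hmgcs1* at 0.53, *Fdft1* at 1.01 and *Lss* at 0.23 no longer passed, the other enzymes had 1 called higher and 0 lower, the sterol regulation and uptake list 0 and 1, and all tested genes 739 and 902. Once adjusted for GC and length, 1 of the other enzymes and 4 of the sterol regulation and uptake list were called lower.

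When 1 library at a time was left out, 6 to 7 of the 7 enzymes, 7 to 11 of the other enzymes and 3 to 5 of the sterol regulation and uptake list were called higher, and *Lss*, at 0.20 to 0.27, lost its call without WT 1, WT 2, WT 3 or cKO 3. Same-numbered WT and cKO libraries did not deviate together (correlations of -0.022, 0.038 and 0.031 across genes). The variance between WT libraries was only 1.49 to 1.58 times that of counting. These correlations therefore cannot decide whether same-numbered libraries were paired. With the replicate block, *Lss* at 0.23 no longer passed (adjusted p = 0.0936 from limma), and 3513 of all tested genes were called higher and 2954 lower. Quantile normalization over all symbols, chosen after seeing the data, kept all 7 enzymes called higher. *Lss* had the fewest estimated fragments of the 7, and the part of depth in its lost calls was not tested.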
